A study of Mus musculus with 12 samples.

Results

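The suppressors of cytokine signalling (SOCS) form a gene family of 8 members in the mouse, Socs1 to Socs7 and Cish, and all 8 were found by symbol among the 55487 genes measured in cortex after a brain injury. Every member also passed the filter on low counts, so all 8 were among the 16836 genes tested. The samples were mouse cortex 2 hr after controlled cortical impact (CCI), a mechanical injury delivered to 1 side of the brain, with 3 libraries in each of 4 groups. The control genotype, named wt here, carried 1 Cre-ER allele at the fractalkine receptor gene (CX3CR1cre-er/+), and the cKO genotype carried that allele together with loxP-flanked STING (CX3CR1cre-er/+ STING fl/fl; the series' own design text writes CX3CR1cre/+ for it). From each genotype, cortex of the injured side (ipsilateral) and of the opposite side (contralateral) was sequenced. All 4 groups therefore shared the injury and the Cre allele. No sham-operated or uninjured mice were among the samples analysed here, and the labels give no dosing schedule, age or sex. Cx3cr1 drives Cre in microglia and in some peripheral leukocytes, so other cells of the cortex keep STING. Nothing in the labels states whether each library is a different mouse, so p values measure the spread between libraries, which may be technical.

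Several SOCS proteins are made in response to cytokines and act back on the pathway that induced them. A cytokine brings its receptor chains together, Janus kinases (JAKs) phosphorylate them, and STAT transcription factors dock and enter the nucleus. Some SOCS genes are among the genes that STATs switch on. Each SOCS protein carries an SH2 domain, which binds phosphotyrosine, and a carboxy-terminal SOCS box, which recruits elongins, a cullin and a RING protein into a ubiquitin ligase. SOCS1 and SOCS3 also carry a short kinase inhibitory region that blocks JAKs directly. In injured brain, Socs3 is known as a target of STAT3 in glia and leukocytes.

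Promoter sequence is shown for Socs3, the member with the large response, for Socs1, the other member with a kinase inhibitory region, and for Socs4. Whether any motif has a part in the response was not tested. RefSeq start sites (build GRCm38.p6) matched 4 members, Socs1, Socs3, Socs4 and Cish. Both strands of the 250 bases before each start were searched for the letters TTCNNNGAA, which STAT dimers bind as the gamma-activated site, for the AP-1 letters TGANTCA, for the cAMP response element letters TGACGTCA, and for NF-kB letters (GGG, any 3 bases, then TTCC). Capitals mark a match, and each sequence is on the strand of its gene.
Socs3, chr11:117969367-117969616, minus strand: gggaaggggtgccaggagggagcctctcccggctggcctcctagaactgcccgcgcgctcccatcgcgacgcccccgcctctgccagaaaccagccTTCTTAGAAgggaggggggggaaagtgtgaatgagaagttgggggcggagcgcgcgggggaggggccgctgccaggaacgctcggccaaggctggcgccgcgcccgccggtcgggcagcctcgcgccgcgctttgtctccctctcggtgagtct
Socs1, chr16:10785537-10785786, minus strand: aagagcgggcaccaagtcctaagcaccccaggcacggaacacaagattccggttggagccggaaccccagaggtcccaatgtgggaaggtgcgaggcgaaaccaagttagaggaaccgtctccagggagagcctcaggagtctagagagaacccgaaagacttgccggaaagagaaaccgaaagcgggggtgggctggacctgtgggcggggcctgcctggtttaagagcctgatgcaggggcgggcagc
Socs4, chr14:47276670-47276919, plus strand: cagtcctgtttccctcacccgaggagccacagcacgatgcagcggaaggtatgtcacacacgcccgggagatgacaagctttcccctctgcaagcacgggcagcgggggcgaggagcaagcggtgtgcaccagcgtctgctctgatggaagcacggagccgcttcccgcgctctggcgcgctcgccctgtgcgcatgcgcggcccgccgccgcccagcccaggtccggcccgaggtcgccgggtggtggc
The Socs3 window held TTCTTAGAA, starting 154 bases before the RefSeq start, and it overlapped no other motif. The windows of Socs1, Socs4 and Cish held none of the 4 motifs. That of Cish, which is not printed, lay downstream of the start of the GENCODE M21 transcript Cish-201 at 107296026, within its opening exon, so for that transcript it is not upstream sequence. Over all 32851 windows of that length, 7.02% held TTCNNNGAA, 6.75% the AP-1 letters, 1.55% the cAMP response element letters and 4.65% the NF-kB letters. In GENCODE M21 the Socs3 window lay upstream of the start of the protein-coding transcript at 117969186, and it overlapped an exon of the transcript Socs3-203. The window did not reach that protein-coding start, and the bases between them were not searched. It also lay downstream of the start of the noncoding transcript Socs3-202 at 117970047. A match is a description of letters, and binding was not measured.

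Library totals ran from 7958931 to 33567194 estimated counts. Ipsilateral library 3 of the cKO was the shallowest and stood apart from the other 11 on the second principal component. The neuronal noncoding RNA Bc1 was at 10548 TPM there and between 83028 and 167036 TPM elsewhere, which raises the TPM of other genes in that library. Values in CPM are counts scaled to a common library size after TMM normalization. Tmem173, which encodes STING, was at 2.49, 2.63 and 3.18 CPM in wt contralateral libraries and at 0.998, 1.96 and 0.762 CPM in cKO contralateral libraries, which did not overlap. Ipsilaterally it was at 2.34, 3.69 and 2.72 CPM in wt and 1.05, 2.44 and 1.24 CPM in the cKO, and library 2 of the cKO lay inside the wt range. In edgeR (quasi-likelihood test, Benjamini-Hochberg adjusted over all genes tested) the log2 difference between genotypes was -1.16 ± 0.35 (SE, adjusted p = 1) contralaterally and -0.84 ± 0.35 (adjusted p = 0.816) ipsilaterally. Which exons the floxed allele removes is not given in the sources used here, so reads from remaining exons cannot be told apart from intact transcript.

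The first question was whether the family differed between the injured and the opposite cortex. Socs3 rose in both genotypes, by 5.57-fold in wt and 7.52-fold in the cKO, and no other member passed the test. Thus 1 of 8 members rose and 0 fell in each genotype, where 2.92% of all tested genes were called in wt (2.73% up) and 2.74% in the cKO (2.56% up). DESeq2 also called 1 member in each genotype. At an unadjusted p below 0.05 there were 3 of 8 members in each genotype, against 14.4% of all tested genes in wt and 14.3% in the cKO. The median log2 difference over the members was 0.23 in wt and 0.17 in the cKO, and the median over all tested genes was -0.01 in both.

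Socs3 encodes the suppressor that docks on gp130, the receptor subunit shared by interleukin-6 type cytokines, and on the leptin and granulocyte colony-stimulating factor receptors. The gene lies on chromosome 11 (mm10, 117966079 to 117970047, minus strand). In wt it was at 4.35, 6.88 and 5.58 CPM contralaterally and at 26.2, 37.1 and 30.5 CPM ipsilaterally. In the cKO it was at 5.11, 4.90 and 4.71 CPM contralaterally and at 38.2, 37.5 and 35.0 CPM ipsilaterally. Every ipsilateral library was above every contralateral library of either genotype, by a wide margin. The fitted log2 difference was 2.48 ± 0.15 in wt (SE, 95% interval 2.16 to 2.80, adjusted p = 1.17e-07) and 2.91 ± 0.16 in the cKO (2.58 to 3.24, adjusted p = 2.64e-08). Without the cKO ipsilateral library that stood apart, the cKO value was 2.94 (adjusted p = 1.97e-07). Ranked by fold among all genes that rose, Socs3 was at place 77 of 460 in wt and 80 of 431 in the cKO. These are cortex homogenates, in which more cells of a type and more RNA per cell cannot be told apart.

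**Figure D1:**
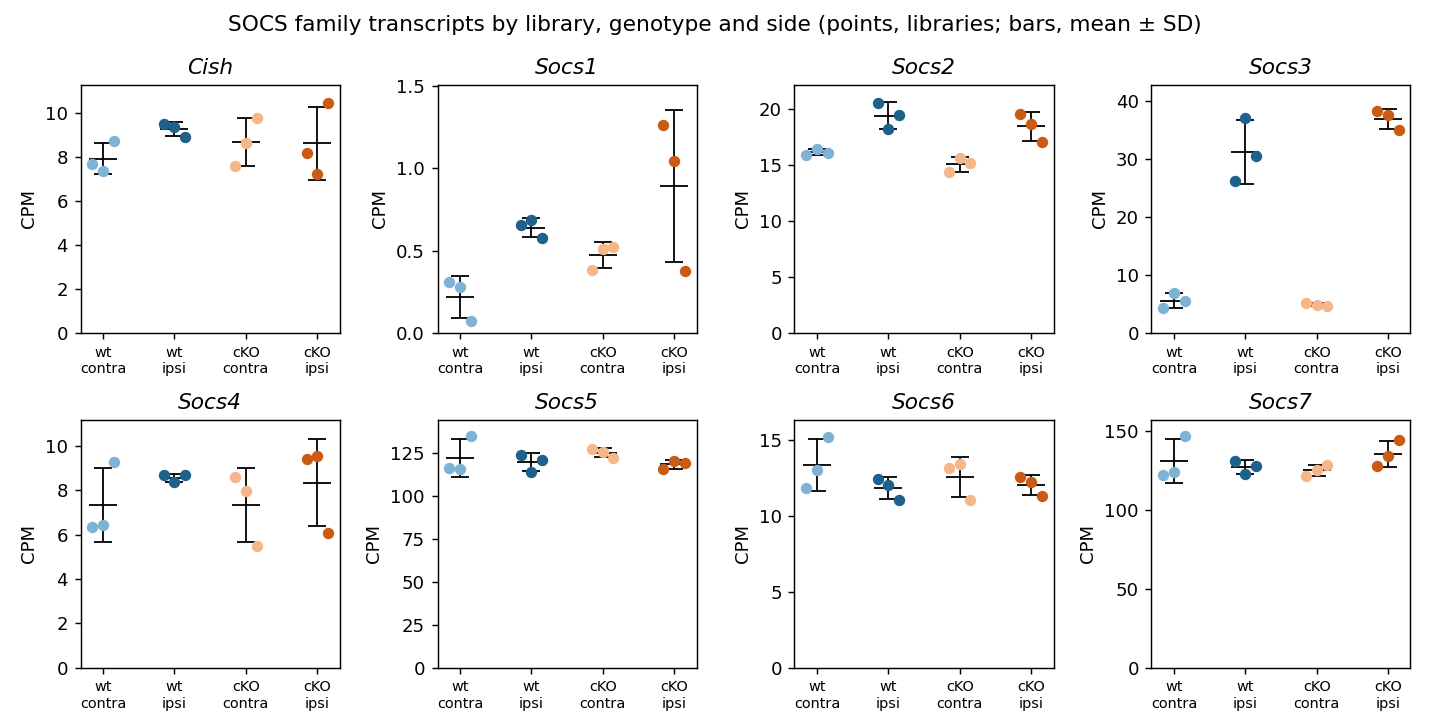
CPM of the 8 members by group, on a linear axis from 0; points are libraries 1 to 3 from left to right and bars are the mean with SD (n = 3). Socs3 moves from 4.35 to 6.88 CPM contralaterally to 26.2 to 38.2 CPM ipsilaterally, while Socs5 and Socs7 stay between 114 and 146 CPM in every group.

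Socs1 encodes the closest relative of SOCS3 in mechanism, a direct JAK inhibitor best known for restraining interferon signalling (chromosome 16, 10782240 to 10785536, minus strand). It was the scarcest member. The estimated counts were 9, 8 and 2 in wt contralateral libraries and 16, 16 and 14 in wt ipsilateral libraries, or 0.311, 0.276 and 0.0748 CPM against 0.656, 0.687 and 0.576 CPM. In the cKO they were 13, 12 and 11 contralaterally and 35, 26 and 3 ipsilaterally, or 0.382, 0.511 and 0.524 CPM against 1.26, 1.04 and 0.373 CPM. All wt ipsilateral libraries were above all wt contralateral ones. In the cKO the shallow ipsilateral library held 3 counts, the floor used here, so its place beside the contralateral libraries is not resolved. It was just under their range in CPM and inside it in TPM, at 0.24 against 0.23 to 0.33 TPM. Neither difference passed the test: the log2 difference was 1.496 ± 0.469 in wt (95% interval 0.494 to 2.498, adjusted p = 0.121) and 1.07 ± 0.42 in the cKO (0.17 to 1.97, adjusted p = 0.26). At these counts a difference of this size was not called at an adjusted p of 0.05. In wt it was 1.11 without contralateral library 3 (adjusted p = 0.195), and in the cKO it was 1.30 without ipsilateral library 3 (adjusted p = 0.147).

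Socs2 and Cish encode the members best known for limiting growth hormone, prolactin and related STAT5 signals. Socs2 (chromosome 10, 95385362 to 95417180, minus strand) was at 15.9, 16.4 and 16.02 CPM contralaterally and 20.5, 18.2 and 19.4 CPM ipsilaterally in wt. In the cKO it was at 14.3, 15.6 and 15.2 CPM contralaterally and 19.5, 18.7 and 17.0 CPM ipsilaterally. In CPM the sides did not overlap in either genotype. In TPM they overlapped in both, at 11.64 to 13.02 and 12.32 to 15.37 in wt and 10.67 to 12.92 and 12.47 to 15.69 in the cKO. The differences were small, 0.27 ± 0.09 on the log2 scale in wt (95% interval 0.08 to 0.45, adjusted p = 0.132) and 0.31 ± 0.09 in the cKO (0.12 to 0.49, adjusted p = 0.0965), and neither was called.

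Cish (chromosome 9, 107296026 to 107302784, plus strand) was at 7.66, 7.36 and 8.72 CPM in wt contralateral and 9.51, 9.36 and 8.89 CPM in wt ipsilateral libraries. The wt sides were separate by a narrow gap in CPM but overlapped in TPM, with a log2 difference of 0.23 ± 0.14 (adjusted p = 0.484). In the cKO it was at 7.60, 8.61 and 9.76 CPM contralaterally and 8.18, 7.21 and 10.5 CPM ipsilaterally, and these overlapped, with a difference of -0.04 ± 0.14 (adjusted p = 0.932). Exons of Cish overlap the antisense genes Gm17040 and Gm17041. The kit was stranded, but how the counting used strand is not given in the sources used here, so reads from these genes may not be separated from Cish reads.

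The remaining 4 members are known mainly for binding receptor tyrosine kinases, insulin receptor substrates and adaptor proteins. Socs5 (chromosome 17, 87107679 to 87137839, plus strand), known for promoting loss of the epidermal growth factor receptor, stayed between 114 and 135 CPM in all 12 libraries. Its log2 difference was -0.03 ± 0.07 in wt (95% interval -0.18 to 0.12) and -0.08 ± 0.07 in the cKO (-0.23 to 0.07). In the cKO, its ipsilateral values of 116, 121 and 119 CPM lay just under the contralateral values of 127, 126 and 122 CPM, a gap that was not called (adjusted p = 0.652). Socs7 (chromosome 11, 97362551 to 97398542, plus strand), which binds adaptor proteins such as Nck, ranged from 122 to 146 CPM, with differences of -0.04 ± 0.08 in wt and 0.11 ± 0.08 in the cKO.

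Socs4, a relative of Socs5 (chromosome 14, 47276931 to 47296102, plus strand), ranged from 5.48 to 9.57 CPM, with differences of 0.22 ± 0.19 in wt and 0.22 ± 0.20 in the cKO. Socs6, which binds the receptor Kit and insulin receptor substrates (chromosome 18), ranged from 11.03 to 15.2 CPM, with differences of -0.17 ± 0.11 in wt and -0.05 ± 0.12 in the cKO. Sides overlapped for both of these genes in both genotypes. For these 4 members the 95% intervals bound the side difference between -0.42 and 0.64 on the log2 scale, so a doubling on the injured side lay outside every one of those intervals.

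**Figure D2:**
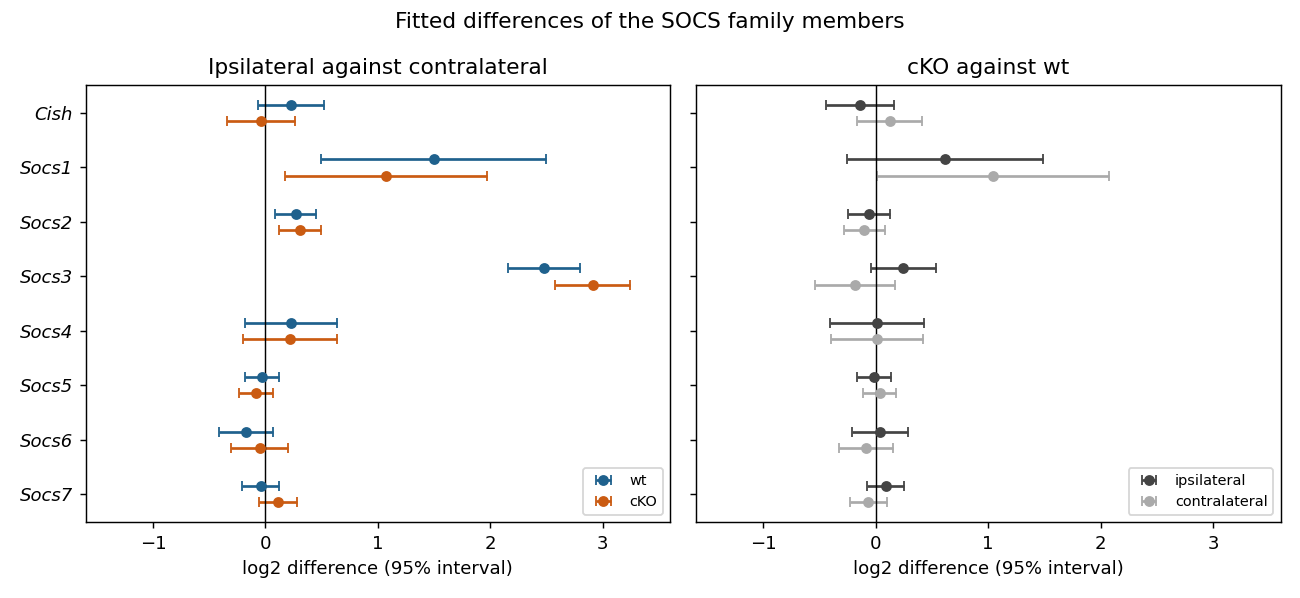
Fitted log2 differences of the 8 members with 95% intervals, for ipsilateral against contralateral in each genotype (left) and cKO against wt on each side (right). Socs3 lies at 2.48 and 2.91 in the left panel, Socs1 has the widest intervals, and no interval in the right panel belongs to a called gene.

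The second question was whether the family differed between the cKO and wt genotypes on either side. How far STING was lost in Cx3cr1-expressing cells was not measured in these homogenates. By edgeR's quasi-likelihood test, 0 of 8 members were called between genotypes ipsilaterally, where 0% of all tested genes were called. There, 987 genes (5.86% of those tested) had an unadjusted p below 0.05, none of them a member. Contralaterally, 0 of 8 members were called, where again 0% of genes were called. Of all tested genes, 455 (2.7%) had an unadjusted p below 0.05, and 1 of these was a member. DESeq2 called 10 genes ipsilaterally and 3 contralaterally, and 0 members on either side. The median log2 difference over the members was 0.02 ipsilaterally and -0.03 contralaterally.

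Ipsilateral Socs3 averaged 31.2 ± 5.49 CPM in wt and 36.9 ± 1.73 CPM in the cKO (SD, n = 3), and wt library 2, at 37.1 CPM, lay among the cKO values. The log2 difference was 0.24 ± 0.14 (95% interval -0.05 to 0.54, adjusted p = 0.878), so the data allowed at most a 0.54 higher log2 level in the cKO at that confidence. Contralaterally it was -0.19 ± 0.17 (adjusted p = 1). The response itself, that is the side difference in the cKO minus that in wt, differed by 0.43 ± 0.21 for Socs3 (95% interval -0.03 to 0.89, unadjusted p = 0.0625, adjusted p = 0.99987), which did not pass. Leaving out 1 library at a time, the difference of responses ranged from 0.25 (without wt contralateral library 2) to 0.59 (without wt contralateral library 1), and was 0.46 without the cKO library that stood apart. The ipsilateral value ranged from 0.13 (without wt ipsilateral library 1) to 0.39 (without wt ipsilateral library 2), and the contralateral one from -0.34 (without wt contralateral library 1) to -0.0090 (without wt contralateral library 2). None of these passed the test. By edgeR 0 of 8 members and 0% of all tested genes were called for the difference of responses. An unadjusted p below 0.05 was found for 0 members and 381 genes (2.26% of those tested), and DESeq2 called 0 genes.

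Socs1 was the member with an unadjusted p below 0.05 contralaterally. Its cKO contralateral libraries, at 11 to 13 counts, were all above the wt ones, at 2 to 9 counts, with a log2 difference of 1.04 ± 0.48 (95% interval 0.01 to 2.08, unadjusted p = 0.0487, adjusted p = 1). Without wt contralateral library 3, which held 2 counts, the difference was 0.66 (adjusted p = 0.963). Ipsilaterally the genotypes overlapped for Socs1 (0.62 ± 0.41, adjusted p = 0.892). Socs2 was lower in CPM in every cKO contralateral library than in every wt one, by a log2 difference of -0.10 ± 0.09 (adjusted p = 1). In TPM these libraries overlapped, at 10.67 to 12.92 in the cKO and 11.64 to 13.02 in wt. The remaining 5 members overlapped between genotypes on both sides, with log2 differences from -0.14 to 0.12. Without the share of all tested genes that separate in this way, the gaps of Socs1 and Socs2 are not read as a genotype effect.

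Set side by side per transcript length, the family had a steep order of levels. Contralateral Socs5 was highest, at 50.1 ± 5.80 TPM in wt and 51.2 ± 3.24 TPM in the cKO, followed by Socs7 (31.5 ± 4.47 and 29.9 ± 1.19 TPM) and Socs2 (12.4 ± 0.71 and 11.6 ± 1.17 TPM). These 3 were separate from their neighbours in every library of a group. Below them Socs6, Cish and Socs3 averaged between 3.74 and 5.64 TPM, and neighbours among them overlapped. Socs4 followed at 1.71 TPM in wt and 1.72 TPM in the cKO, and Socs1 was last at 0.13 ± 0.07 and 0.29 ± 0.05 TPM. Socs5 and Socs7 together were 74.8 ± 0.73% of the family's TPM in wt and 74.4 ± 0.57% in the cKO contralaterally.

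On the injured side Socs3 moved from the sixth place to the third. It stood at 18.7 ± 1.81 TPM in wt and 24.7 ± 2.43 TPM in the cKO, below Socs7 and above Socs2, with no overlap with either. Its share of the family's TPM was 3.42 ± 0.77% contralaterally and 16.5 ± 2.65% ipsilaterally in wt, and 3.52 ± 0.14% and 18.8 ± 1.29% in the cKO. The share of Socs5 and Socs7 was 62.0 ± 3.26% and 61.4 ± 1.31% ipsilaterally. The summed family level was 109 ± 13.01 and 114 ± 11.8 TPM in wt and 109 ± 4.24 and 132 ± 20.1 TPM in the cKO, contralateral and ipsilateral respectively. The highest of the 12 sums, 154 TPM, belonged to the shallow cKO library in which Bc1 was low. The order of the other 7 members was otherwise kept, except that Cish and Socs6, which overlapped, changed places in wt.

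**Figure D3:**
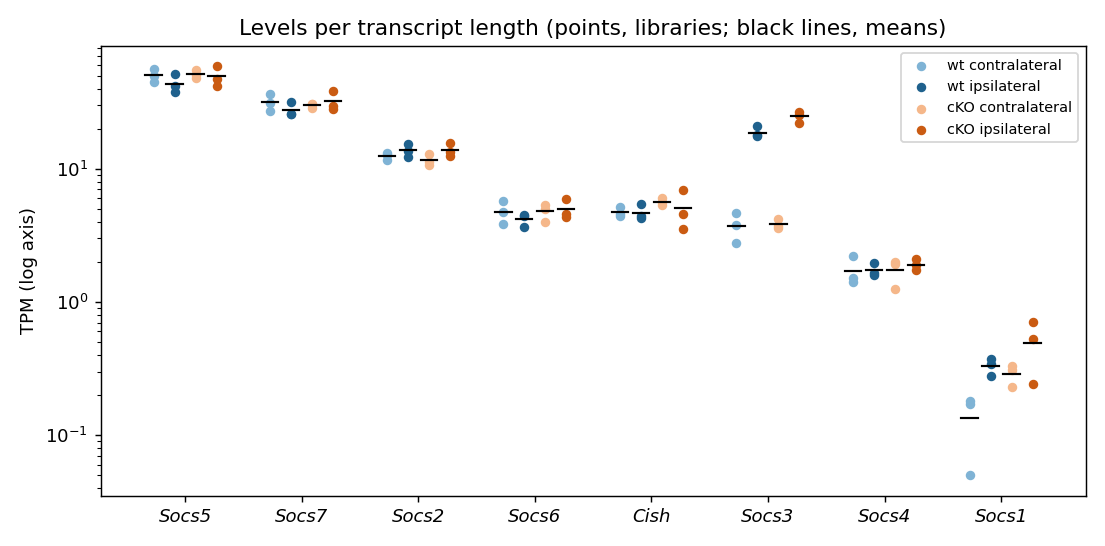
TPM of each member per library on a log axis, with group means as black lines and members ordered by level. Socs3 is the gene whose ipsilateral points separate from its contralateral ones in both genotypes, at 17.5 to 26.8 TPM against 2.76 to 4.67 TPM. Socs1 points separate in wt only, at 0.28 to 0.37 TPM against 0.05 to 0.18 TPM.

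Over the 12 libraries, the pattern of Socs3 was compared with 14489 genes by the root mean square difference of log2 CPM after each gene's mean was removed. The nearest genes were Maff (0.13 log2 units), which encodes a small Maf transcription factor, Tgif1 (0.19), a homeobox repressor of TGF-beta signalling, and Zfp36 (0.20), which encodes the mRNA-decay protein tristetraprolin. Neurl3, a ubiquitin ligase gene, and C3ar1, the complement C3a receptor, followed at 0.25 each. Maff was at 3.42, 5.56 and 4.49 CPM in wt contralateral and 21.9, 30.8 and 21.8 CPM in wt ipsilateral libraries. In the cKO it was at 3.20, 4.26 and 3.67 CPM contralaterally and 27.2, 31.7 and 25.1 CPM ipsilaterally. Library 2 was the highest of the 3 on both sides in wt for Socs3 and for Maff alike. Fitted side differences of the 5 genes lay between 2.46 and 2.74 in wt and between 2.72 and 3.08 in the cKO, on the log2 scale. The 5 genes were picked for likeness to Socs3 over these libraries, so these values follow from the choice.

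**Figure D4:**
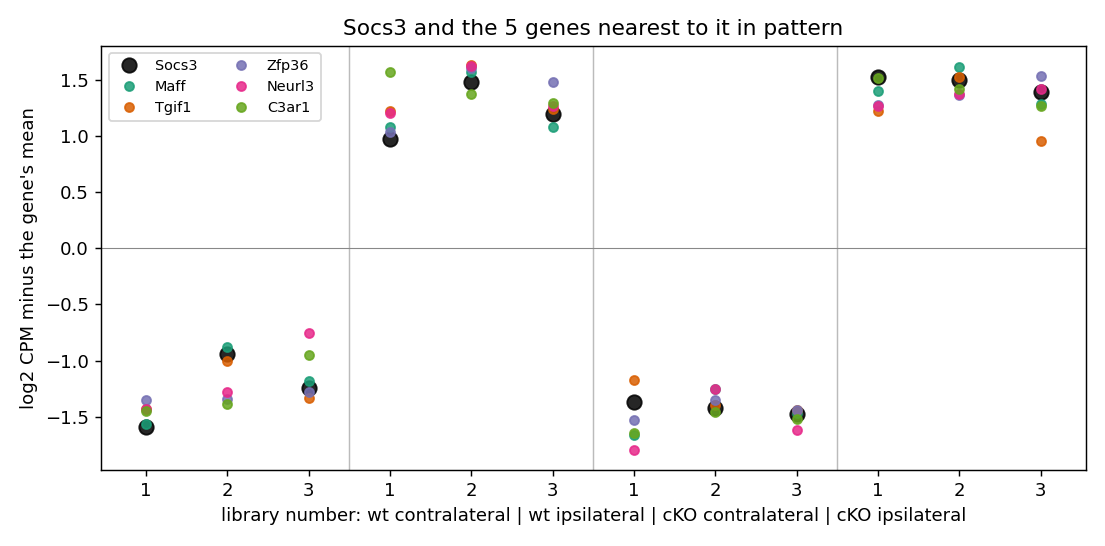
Log2 CPM minus the gene's mean over 12 libraries, for Socs3 (black) and the 5 genes nearest to it, with libraries ordered by group. All 6 genes lie below 0 in the contralateral and above 0 in the ipsilateral libraries. The 5 genes were chosen for likeness over these same 12 libraries, so their likeness to Socs3 follows from the choice.

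The pathway that Socs3 restrains was described from lists of its parts. Among 24 ligands of JAK-STAT receptors 10 were expressed enough to test, and 3 of these rose in wt and 4 in the cKO, with none lower. Ligands with few or no contralateral counts (Osm, Csf3 and Il6, below) could pass the low-count filter only through the ipsilateral libraries. They had little room to be called lower, so these numbers of calls are partly set by the filter. Osm, encoding oncostatin M, a gp130 cytokine, rose by 4.201 ± 0.519 on the log2 scale in wt (adjusted p = 0.000147) and 4.81 ± 0.59 in the cKO (adjusted p = 0.000135), from 13 and 7 counts in all contralateral libraries together to 210 and 155 counts. Lif, another gp130 cytokine, rose by 2.46 ± 0.55 in wt (adjusted p = 0.0227) and 4.86 ± 0.68 in the cKO (adjusted p = 0.000478). The wt call for Lif was lost without contralateral library 1 (adjusted p = 0.0567) or without ipsilateral library 2 (adjusted p = 0.121). Csf3, encoding granulocyte colony-stimulating factor, was called higher ipsilaterally in both genotypes, with 0 against 68 counts in wt and 3 against 219 counts in the cKO over 3 libraries each. Il6, whose rise of 4.33 ± 0.83 in the cKO was the remaining call (adjusted p = 0.00797), was at 4 counts contralaterally and 78 ipsilaterally there. The cKO ipsilateral libraries were uneven for Il6, from 0.124 to 1.98 CPM. The lowest was the shallow library, under its floor of 0.373 CPM. Whether the Il6 call held with a library left out or in limma was not followed. In wt Il6 was at 4 counts contralaterally and 38 ipsilaterally (adjusted p = 0.0627), and the difference of its responses was not called (0.98 ± 1.58).

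Of 25 receptors that signal through JAKs, 24 were tested, and 3 rose in wt and 2 in the cKO. Osmr, the oncostatin M receptor chain that pairs with gp130, rose by 0.91 ± 0.21 in wt and 0.98 ± 0.21 in the cKO. Il10ra, the interleukin-10 receptor chain of leukocytes and microglia, rose by 0.89 ± 0.17 in wt (adjusted p = 0.00728) and was at 0.67 ± 0.18 in the cKO (adjusted p = 0.0675, or 0.0148 in DESeq2). Csf3r, the receptor for Csf3 and also a neutrophil marker, rose by 0.81 ± 0.21 in wt (adjusted p = 0.047) and 1.14 ± 0.21 in the cKO (adjusted p = 0.00497). With the replicate number as a block the wt call for Csf3r was lost (adjusted p = 0.0586). The wt call for Osmr was lost without contralateral library 1 or 2 or ipsilateral library 2 or 3, and its cKO call without contralateral library 1 or 3 or ipsilateral library 1 or 2. That for Csf3r was lost in wt when any of 9 of the 12 libraries was left out (it held without wt ipsilateral library 1 or cKO ipsilateral library 2 or 3), and in the cKO without ipsilateral library 2 (adjusted p = 0.0509). Leaving out 1 library at a time, between 1 and 4 receptors were called in wt and between 0 and 3 in the cKO. The gp130 chain itself, Il6st, was at 0.09 in wt and 0.03 in the cKO on the log2 scale and was not called.

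Of the 11 JAK and STAT genes, Stat3 rose in both genotypes and no other was called. Stat3, the factor that gp130 receptors activate, rose modestly, by 0.34 ± 0.07 in wt (adjusted p = 0.0135) and 0.37 ± 0.07 in the cKO (adjusted p = 0.008). This call was lost in wt without contralateral library 1 or 2 or ipsilateral library 2 or 3 (adjusted p from 0.0542 to 0.0863), and in the cKO without contralateral library 1 or ipsilateral library 1 or 2 (adjusted p from 0.05005 to 0.0679).

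Genes known as STAT3 targets were the list with most calls: of 17 tested, 10 rose in wt and 9 in the cKO, with none lower and a median log2 difference of 1.056 and 1.386. Icam1, the adhesion molecule that leukocytes bind on endothelium, rose by 2.98 ± 0.23 in wt (adjusted p = 1.03e-06) and 3.36 ± 0.23 in the cKO (adjusted p = 2.34e-07). Pim1, a survival kinase gene, rose by 1.77 ± 0.16 and 1.99 ± 0.17, and Junb, an AP-1 subunit gene, by 1.52 ± 0.15 and 1.66 ± 0.15. Many genes of this list also answer to other signals, Junb and Icam1 among them. The astrocyte genes Gfap (-0.03 in wt, 0.33 in the cKO) and Serpina3n (-0.12 and -0.18) were not called. Without the cKO library that stood apart, 11 were called in each genotype, and limma on log2 TPM called 4 in wt and 7 in the cKO.

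Other brakes of the pathway moved less than Socs3. Of 13 other inhibitors, Ptprc alone was called, by 0.97 ± 0.25 in wt (adjusted p = 0.0496) and 1.80 ± 0.26 in the cKO (adjusted p = 0.00073). Ptprc encodes the leukocyte phosphatase CD45, which is also a marker of leukocytes, and its wt call was lost when any of 9 of the 12 libraries was left out (adjusted p from 0.0553 to 0.269), the exceptions being the ipsilateral library 1 of each genotype and the third contralateral library of wt. The PIAS genes, Ptpn1, Ptpn2, Ptpn6, Ptpn11, Usp18, Sh2b3, Cbl and Cblb were not called. None of the 4 partners that SOCS boxes recruit (Elob, Eloc, Cul5, Rnf7) was called in either genotype, and Elob, elongin B, was at 514 ± 87.3 and 425 ± 23.3 TPM in wt and at 528 ± 50.5 and 457 ± 58.4 TPM in the cKO, contralateral and ipsilateral.

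Among 26 other genes with a SOCS box, 20 were tested and 2 rose in each genotype. Wsb1, encoding a WD-repeat ubiquitin ligase adaptor, rose by 0.57 ± 0.09 in wt (adjusted p = 0.00241) and 0.67 ± 0.10 in the cKO (adjusted p = 0.000572). Asb4, an ankyrin-repeat member, rose by 1.89 ± 0.35 and 1.53 ± 0.34, and its cKO call (adjusted p = 0.0243) was lost without cKO contralateral library 2 or 3 or ipsilateral library 1 or 2. Of 9 growth factor receptors and adaptors that SOCS proteins bind, 0 were called by edgeR in either genotype, and 1 in each with the replicate block. The most abundant of them, Ptk2, the focal adhesion kinase gene, was at -0.09 ± 0.07 in wt and -0.06 ± 0.07 in the cKO. In the genotype comparisons and the difference of responses no gene of any of these lists was called. In limma on log2 TPM the wt calls of Csf3, Il10ra, Osmr, Csf3r, Stat3, Ptprc, Wsb1 and Asb4 and the cKO calls of Osmr, Csf3r, Stat3 and Asb4 were lost.

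**Figure D5:**
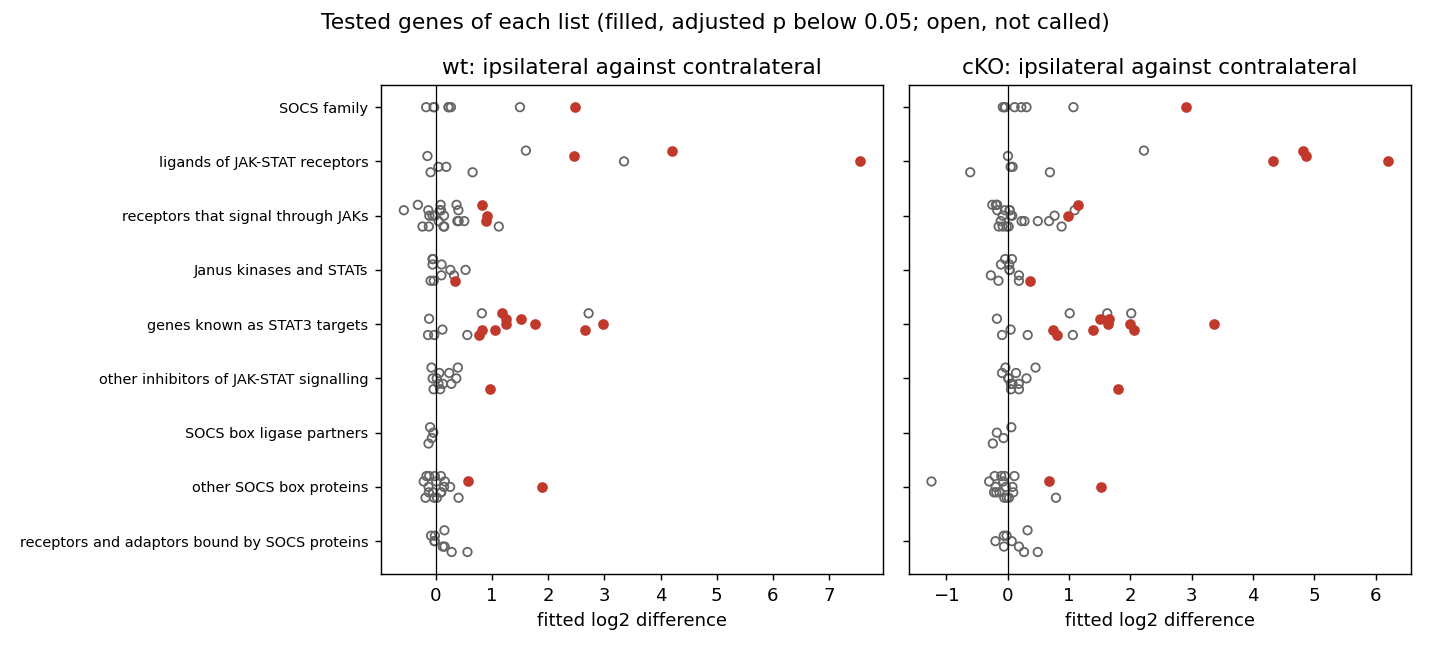
Fitted log2 differences between sides for every tested gene of each list, in wt (left) and cKO (right); filled points have an adjusted p below 0.05. Socs3 is the single filled point of the SOCS family, and the ligand Csf3 is the point farthest to the right in each panel.

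Markers of other cells also moved between the sides. Of 10 neutrophil markers 9 were tested and 9 rose in each genotype, and their summed level was 4.53 to 4.90 CPM in wt contralateral, 12.3 to 33.1 CPM in wt ipsilateral, 4.26 to 5.52 CPM in cKO contralateral and 22.6 to 50.8 CPM in cKO ipsilateral libraries. Ly6g and Mmp8 were at 0 counts in both contralateral groups. A marker at 0 there could pass the low-count filter only through the ipsilateral libraries. Once tested it could only be higher ipsilaterally, so the 9 of 9 is partly set by the filter. Of 5 erythroid markers 3 rose in wt and 5 in the cKO, and they summed to between 2.10 and 242 CPM contralaterally and between 597 and 2104 CPM ipsilaterally. Of 7 microglial markers 0 rose and 1 fell in each genotype, namely Tmem119 (-0.71 in wt and -0.69 in the cKO on the log2 scale), with sums over the list of 253 to 299 CPM in wt ipsilateral and 222 to 284 CPM in cKO ipsilateral libraries.

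Astrocyte, endothelial and neuronal sums also differed between the sides, by less. Of 6 astrocyte markers 0 were called in either genotype, yet their sums did not overlap between the sides, at 4093 to 4893 CPM contralaterally and 5033 to 5453 CPM ipsilaterally in wt, and 4130 to 4506 and 4779 to 5215 CPM in the cKO. Of 6 endothelial markers 1 rose in each genotype, Flt1, a receptor for vascular endothelial growth factor (0.39, adjusted p = 0.0413 in wt; 0.49, adjusted p = 0.0102 in the cKO). The endothelial sums overlapped in wt, at 149 to 177 and 174 to 228 CPM, but not in the cKO, at 137 to 145 and 169 to 189 CPM. Of 6 neuronal markers 0 were called in wt and 1 fell in the cKO, Snap25, a synaptic fusion protein gene (-0.27, adjusted p = 0.03), and their sums overlapped in wt but not in the cKO, at 8176 to 8686 CPM contralaterally and 7373 to 7551 CPM ipsilaterally. The monocyte and macrophage marker Lyz2 rose in the cKO (0.91, adjusted p = 0.0183) and the meningeal fibroblast marker Slc6a13 fell in wt (-0.70, adjusted p = 0.0489), and no other gene of those 2 lists or of the oligodendrocyte and striatal lists was called. The sums of the microglial list and of these 4 lists overlapped between the sides in both genotypes. The part of any of these cells in the Socs3, Csf3r, Ptprc or Il10ra differences was not tested.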

How the data were processed

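RNA of cortex was sequenced as 12 libraries (TruSeq stranded mRNA kit, per the labels' protocols), 3 per group of genotype and side. Per the submitters' processing notes, the authors used Trim Galore 0.6.4, STAR 2.7.1a, RSEM 1.2.28 and the build mm10; DESeq2 1.36.0 is also named. The deposited tables hold RSEM estimated counts, given as whole numbers, and TPM values, which the authors made with the same tool. TPM of a library depends on its most abundant RNAs. Annotation and strand setting are not given in the sources used here.

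Identifiers were matched to GENCODE M21 (55141 of 55487 genes). Genes were kept by filterByExpr (minimum count 10, total 15), scaled by TMM and fitted over the 4 groups with edgeR 4.0.16 (R 4.3.3), quasi-likelihood test, Benjamini-Hochberg adjustment, threshold 0.05. SE is the log2 difference divided by the square root of F. Alternatives used DESeq2 1.42.0, limma 3.58.1 on log2(TPM + 1), other scalings and filters, libraries left out and a replicate block. A count of 3 was the floor, 0.0881 to 0.373 CPM, covering counting error only. On simulated counts for 16836 genes with 200 changed, the fit recovered 87% of 2-fold changes in wt and 88% in the cKO side comparison. It made 18 and 9 false calls there, and recovered 76% of 2-fold changes for the difference of responses. Counts were drawn with the spread estimated from these data, and only genes averaging 1 CPM or more were changed. These rates therefore do not cover Socs1.

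The members, lists and tests were chosen with earlier results of these data known. Named were all members, Tmem173, the 5 genes nearest in pattern to Socs3 (among genes averaging 1 CPM or more), and up to 3 called genes per list and comparison with the smallest adjusted p; Il6, Il6st, Gfap, Serpina3n, Tmem119, Flt1, Snap25, Lyz2 and Slc6a13 were added after their values were seen. A few genes and 1 list are not reported here. Same-numbered libraries of the 2 sides correlated in their deviations from group means in the cKO (r = 0.105, 0.239 and 0.165 over 14536 genes, each above 0.1) but not in every wt pair; the labels state no pairing. Proteins were not used here.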

Additional observations from a re-analysis of the deposited data

How the results depend on the processing

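Socs3 was called in both genotypes under all 20 alternatives, with log2 differences from 2.07 to 2.66 in wt and from 2.41 to 2.94 in the cKO, and no other member was called in any comparison under any alternative. Socs1 had no value under the strict filter (1 CPM in 3 libraries) or in limma on log2 TPM, and the fit of only the compared groups gives no difference of responses. Signs changed in 43 of 782 member values, in 18 of 40 member results, all with an adjusted p of 0.570 or more. With the replicate block no member's call changed (0 of 40). It gave 567 called genes in wt and 533 in the cKO, and turned Socs4 ipsilaterally between genotypes to -0.00024. For the side comparisons and the difference of responses the block was the replicate number within a genotype. Between genotypes it was the number across genotypes, which joins different mice, so it is no check of pairing there. In wt, same-numbered libraries correlated at -0.112, 0.211 and 0.0607, so the numbers were not taken to pair them.

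In limma on log2 TPM, Cish turned to -0.019 in the wt side comparison and Socs6 to 0.039 in the cKO. Between genotypes it turned Socs2 to 0.0090, Socs5 to 0.18 and Cish to 0.056 ipsilaterally, and Socs3 to 0.048 and Socs6 to 0.013 contralaterally; the difference of responses turned to 0.086 for Socs4 and 0.14 for Socs5. Scaling by library totals turned Socs5 ipsilaterally between genotypes to 0.025 and the Socs4 difference of responses to 0.023. The latter was 0.0020 with DESeq2 size factors and 0.0010 without a filter, and the DESeq2 test put Socs4 ipsilaterally between genotypes at -0.0024.

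Leaving out 1 library at a time, the wt side difference ranged from -0.071 to 0.045 for Socs5 and from -0.092 to 0.046 for Socs7, and the cKO side difference of Cish from -0.16 to 0.079. Between genotypes ipsilaterally, Socs4 ranged from -0.086 to 0.14, Socs5 from -0.050 to 0.0044 and Socs6 from -0.017 to 0.069. Contralaterally, Socs4 ranged from -0.12 to 0.22, Socs5 from -0.0053 to 0.11, Socs6 from -0.17 to 0.018 and Socs7 from -0.11 to 0.023. The difference of responses ranged from -0.0083 to 0.081 for Socs2 and from -0.20 to 0.13 for Socs4.

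The 491 genes called in wt became 991 without a filter, 766 in DESeq2, 139 in limma on log2 TPM, and 250 (without wt contralateral library 2) to 861 (without wt contralateral library 3) with a library left out. The 461 of the cKO became 968, 174 in limma, and 277 (without cKO ipsilateral library 2) to 579. Between genotypes, no filter gave 223 genes ipsilaterally and 96 contralaterally, DESeq2 10 and 3, limma 1 ipsilaterally, and a left-out library 0 to 2 contralaterally; for the difference of responses no filter gave 72 and limma 1. The cause was not tested. Socs1 had 2 to 35 counts a library, which limits the precision of its values.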
